A study of Mus musculus with 6 samples.

Results

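The nuclear-encoded complex I genes were followed in maxillary prominences of mouse embryos, in wild-type embryos (WT) and in embryos that overexpress Dlx2 in neural crest cells. Members were the protein-coding genes whose symbol in GENCODE M21, an annotation of the build GRCm38 (mm10), starts with Nduf, then a, b, c, s, v, ab or af, then a number. There were 46 such genes among the 53801 genes of the count files, and each of the 46 was among the 17514 genes with enough counts to be tested. They comprised 36 established subunits, 8 Ndufaf assembly factors, and 2 further genes, Ndufa4 and Ndufa4l2. The established subunit Ndufb1 was not among them, since M21 lists its locus as a noncoding gene, Ndufb1-ps.

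Both groups were embryos at embryonic day 12.5 of strain C57BL/6 by the sample labels, in whose protocols the knock-in background and the WT mice are C57BL/6J, with 3 RNA samples each. The Dlx2OE embryos (Wnt1cre; Rosa26Dlx2/-) carried a Dlx2-3xFlag cassette behind the CAG promoter and a loxP-flanked stop in Rosa26, released by Cre under Wnt1 control in the neural crest lineage, so epithelium, endothelium and blood cells of the dissected tissue are outside the lineage that releases it. The WT embryos are given as wild type, so no group carried Cre or the cassette alone. The sample labels give 7 littermates as the RNA source and the study's methods a different number, neither saying how they were divided among samples. P-values therefore measure the spread between these RNA samples. Levels of Dlx2, the overexpressed gene, were 42.9, 35 and 45.2 CPM (counts scaled to library size) in WT and 119, 131 and 123 CPM in Dlx2OE, which is 3.03-fold higher (log2 fold change 1.60, SE 0.12, adjusted p = 0.00241 in edgeR's quasi-likelihood F test, Benjamini-Hochberg adjusted over all genes tested, the test used throughout).

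Complex I is the entry point of the mitochondrial respiratory chain: it takes electrons from NADH, hands them to ubiquinone and pumps protons across the inner membrane. Its matrix arm holds the N module, which oxidizes NADH, and the Q module, which reduces ubiquinone, and its membrane arm holds the proton pumps. The catalytic core is built from subunits of nuclear and of mitochondrial DNA, the many accessory subunits surround it, and assembly factors help to build the enzyme without staying in it. Its genes are used by nearly every cell type, so a tissue sample sums over all cells it holds.

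All 46 members had a negative log2 fold change in Dlx2OE, beside 49.7% of all genes tested. Of these, 14 passed the test at an adjusted p under 0.05, all of them lower in Dlx2OE, against 3.46% of all genes called lower and 2.99% called higher. The 14 were 13 accessory subunits and Ndufa4, and none was a core catalytic subunit or an assembly factor. Another 15 members had an adjusted p between 0.05 and 0.1. The median log2 fold change was -0.71 over the 36 subunits, which is 1.63-fold lower, -0.32 over the 8 Ndufaf factors, and 0.0028 over all genes tested. In 32 of the 46 members all Dlx2OE samples lay below all WT samples, beside 17.3% of all genes tested. Bulk RNA cannot tell fewer cells of a type from less RNA per cell.

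The samples did not stand in 2 compact groups, which bears on every count of calls. The third WT sample lay between the other samples: in 32 of the 46 members it was below both other WT samples and above all Dlx2OE samples, and the median member was 0.17 and 0.21 log2 units above the WT mean in WT samples 1 and 2 and 0.35 below it in WT sample 3. The Dlx2OE medians were -0.53, -0.64 and -0.76. The third Dlx2OE sample also stood apart in its library, with 14.7% of reads outside annotated genes against 5.75% and 7.81% in the other Dlx2OE samples. All of these were above the WT samples, at 5.03%, 5.43% and 5.25%. Reads without a unique alignment took 5.89%, 6.24% and 5.25% in WT and 4.69%, 4.85% and 4.60% in Dlx2OE. Both measures thus differed by genotype without overlap, and their part in the members' values was not tested. Without WT sample 3, edgeR called 33 members lower, beside 7.14% of all genes, and without Dlx2OE sample 1 it called 22, beside 5.33%. Without WT sample 1, WT sample 2 or Dlx2OE sample 2 it called 0, beside 0.567%, 0.222% and 0.4% of all genes, while 30, 28 and 33 members had an unadjusted p under 0.05, beside 22.6%, 19% and 22.1% of all genes. With all samples, 36 members had one, beside 29.5% of all genes in either direction. Without Dlx2OE sample 3 it called only Ndufb8, beside 0.793%. DESeq2, which tests the same counts with a different model, called 29 members lower, beside 7.82% of its genes, among them each of the 14.

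**Figure D1:**
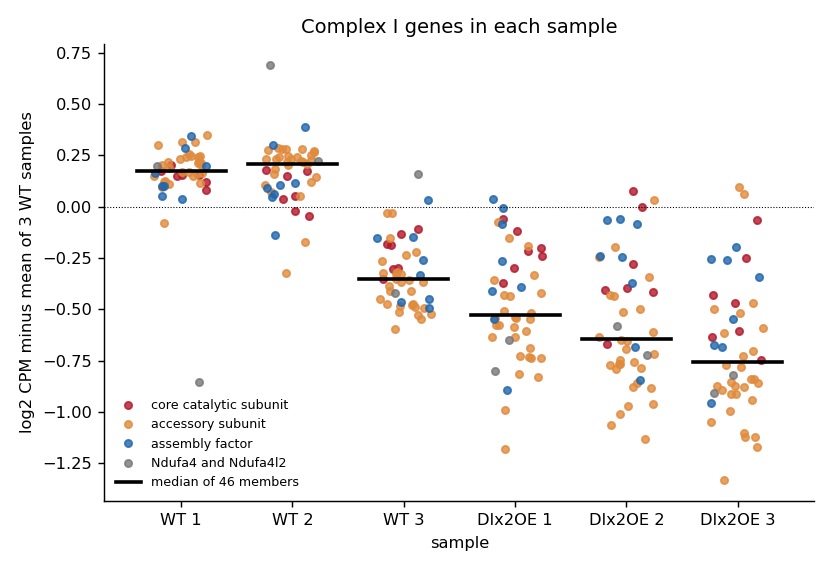
Each point is 1 of the 46 members in 1 sample, as log2 CPM minus that gene's mean over the 3 WT samples; colours mark the roles and black bars the median of the 46. The bars sit at 0.17 and 0.21 in WT samples 1 and 2, at -0.35 in WT sample 3 and at -0.53, -0.64 and -0.76 in the Dlx2OE samples.

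The letters in front of some of these genes are shown before the values, because several members hold motifs of factors known to drive respiratory genes. RefSeq promoters of GRCm38.p6, from 250 bases before to 50 bases after a gene's start, were matched by symbol to 40 of the 46 members. Motifs were searched on both strands. The core of the motif of NRF1, a factor known for driving genes of oxidative phosphorylation, was searched as GCGCANGC and was present in 11 of the 40 members, 27.5%, beside 11.2% of all 27025 genes with a promoter. The letters AAGATGGC, the motif of YY1, a zinc-finger factor that can bind near the start of housekeeping genes, were present in 8 members, 20%, beside 3.19%. The ETS core CGGAAG was present in 14 members, 35%, beside 18.8%. The longer form CCGGAAGT, bound by GABP and holding that core, was present in 1 member (Ndufs3), 2.50% beside 4.31%. By role, the ETS core was in 6 of the 7 factors with a promoter and in 8 of the 32 subunits. The NRF1 core was in 2 of these factors and 9 of these subunits, and the YY1 letters in 1 and 7. A match is a description of letters, not a shown binding site.

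The 250 bases before the start are given for Ndufa6, an accessory subunit with one of the largest falls, and for Ndufaf4, an assembly factor that did not pass the test, since both hold the NRF1 core. Capitals mark NRF1 cores in both and, in Ndufaf4, also the ETS core that follows it.
Ndufa6 (chr15:82354292-82354541, reverse strand): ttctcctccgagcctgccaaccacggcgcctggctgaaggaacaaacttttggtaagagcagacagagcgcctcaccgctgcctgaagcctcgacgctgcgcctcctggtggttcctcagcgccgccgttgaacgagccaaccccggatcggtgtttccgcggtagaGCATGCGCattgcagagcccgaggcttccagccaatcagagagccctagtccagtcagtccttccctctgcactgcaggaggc
Ndufaf4 (chr4:24897833-24898082, forward strand): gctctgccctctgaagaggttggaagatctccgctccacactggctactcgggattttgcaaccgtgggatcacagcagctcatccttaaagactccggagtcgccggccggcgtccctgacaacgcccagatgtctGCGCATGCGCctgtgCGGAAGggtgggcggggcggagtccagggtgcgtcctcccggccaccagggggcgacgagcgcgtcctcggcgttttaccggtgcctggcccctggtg
Ndufa6 fell (log2 fold change -1.14, SE 0.19, adjusted p = 0.0204), and Ndufaf4 had a value of -0.18 (SE 0.14, adjusted p = 0.424). Over the members the median log2 fold change was -0.71 with the NRF1 core and -0.67 without it. For the ETS core it was -0.56 with the core and -0.71 without it. A link between a motif and the role or the change of a member was not tested.

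In all 8 members with the YY1 letters they lay after the annotated start and on the gene's own strand, with the first base 10 to 38 bases from the start. They are shown with up to 11 bases on either side, with the motif in capitals. The stretch searched ended 50 bases after the start, which limits how far downstream a match could lie. The motif holds the letters ATG, and its place relative to the start codon is not given here.
Ndufa3 (chr7:3617384-3617413, forward strand): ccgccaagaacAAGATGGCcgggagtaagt
Ndufa9 (chr6:126849097-126849126, reverse strand): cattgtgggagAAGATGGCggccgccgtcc
Ndufb8 (chr19:44555393-44555415, reverse strand): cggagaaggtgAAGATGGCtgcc
Ndufc1 (chr3:51408915-51408944, reverse strand): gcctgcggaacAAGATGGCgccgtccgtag
Ndufs4 (chr13:114388045-114388070, reverse strand): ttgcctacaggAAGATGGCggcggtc
Ndufs6 (chr13:73328433-73328460, reverse strand): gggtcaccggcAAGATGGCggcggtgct
Ndufs7 (chr10:80249462-80249491, forward strand): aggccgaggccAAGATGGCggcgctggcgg
Ndufaf8 (chr11:120098933-120098962, forward strand): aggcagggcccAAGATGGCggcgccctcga
The members with these letters had log2 fold changes from -1.23 in Ndufa3 to -0.31 in Ndufa9, with a median of -0.74, against -0.69 in those without them. Of the 8, Ndufa3 and Ndufb8 were called lower, beside 3.46% of all genes.

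The core catalytic subunits carry the flavin and the iron-sulphur clusters along which electrons pass from NADH to ubiquinone. Of the 6 described here none passed edgeR's test, and 4 had an unadjusted p under 0.05 (29.5% of all genes did). DESeq2 called 2 lower, beside 7.82% of its genes. In 2, Ndufv2 and Ndufs3, all Dlx2OE samples lay below all WT samples, beside 17.3% of all genes. The median log2 fold change of the 6 was -0.40. Ndufv2, a subunit with an iron-sulphur cluster beside the NADH site, had 194, 194 and 141 CPM in the 3 WT samples and 135, 110.0 and 104 CPM in the 3 Dlx2OE samples. All its Dlx2OE values were below its lowest WT value, which was that of WT sample 3, and the difference missed the threshold (log2 fold change -0.60, SE 0.16, adjusted p = 0.0590). Ndufs3, a scaffold of the Q module, had 82.6, 81.1 and 71.2 CPM in the 3 WT samples and 63.5, 58.6 and 50.3 CPM in the 3 Dlx2OE samples (log2 fold change -0.45, SE 0.12, adjusted p = 0.0580). It has a near-identical processed pseudogene, Gm12251, so its reads could be split or left out by the counting.

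The other 4 had overlapping groups. Ndufs7, which carries an iron-sulphur cluster close to the ubiquinone site, had 56.4, 58.6 and 42.2 CPM in the 3 WT samples and 45.2, 39.2 and 37.4 CPM in the 3 Dlx2OE samples (log2 fold change -0.37, adjusted p = 0.141). Ndufs8, which carries iron-sulphur clusters of the Q module, had 101, 101 and 69.6 CPM in the 3 WT samples and 75.3, 67.6 and 58.4 CPM in the 3 Dlx2OE samples (log2 fold change -0.43, adjusted p = 0.135). In both genes WT samples 1 and 2 were the highest, and WT sample 3 lay among the Dlx2OE values. Ndufv1, the subunit that binds the flavin and NADH, had 112, 103 and 88.6 CPM in the 3 WT samples and 93.0, 101 and 84.8 CPM in the 3 Dlx2OE samples (log2 fold change -0.13, adjusted p = 0.495). Ndufs1, the largest subunit by coding length among the members, had 117, 102 and 97.6 CPM in the 3 WT samples and 101, 111 and 101 CPM in the 3 Dlx2OE samples and the smallest difference of the 46 (log2 fold change -0.018, SE 0.10, adjusted p = 0.917). With library size alone in place of TMM scaling, Ndufs1 and the accessory subunit Ndufab1 were the only members with a positive value.

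The accessory subunits held nearly all calls. All 29 had a negative log2 fold change, with a median of -0.75. Of them 13 were called lower, beside 3.46% of all genes tested. In 25 all Dlx2OE samples lay below all WT samples, beside 17.3% of all genes. The N module had 4 of its 10 members called, with a median of -0.66, and the Q module 1 of 6, with a median of -0.40. The proximal membrane arm had 3 of 9 called, with a median of -0.71, and the distal membrane arm 5 of 11, with a median of -0.75. All these calls were lower, beside the same 3.46% of all genes tested. These modules include the core subunits, and differences between modules were not tested.

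In the N module, the 4 called members were Ndufa6, Ndufa2, Ndufa7 and Ndufa12. Ndufa6 (chr15:82350140-82354322), which holds an acyl carrier protein on the matrix arm, had 120.0, 124 and 73.6 CPM in the 3 WT samples and 51.8, 46.9 and 45.7 CPM in the 3 Dlx2OE samples. The Dlx2OE values were close together and 1 sample of WT, the third, lay between the groups, for a difference of 2.20-fold (log2 fold change -1.14, SE 0.19, adjusted p = 0.0204). Ndufa2, a small subunit with a thioredoxin-like fold, had 121, 121 and 72.7 CPM in the 3 WT samples and 58.2, 50.7 and 47.5 CPM in the 3 Dlx2OE samples (log2 fold change -1.01, SE 0.20, adjusted p = 0.0309). Of its exon bases 11.5% overlap Tmco6 on the opposite strand, and the library kit does not mark strand, so reads there cannot be told apart. Ndufa7 had 125, 127 and 77.1 CPM in the 3 WT samples and 64.6, 61.8 and 51.7 CPM in the 3 Dlx2OE samples (log2 fold change -0.89, SE 0.20, adjusted p = 0.0402). Ndufa12, which takes the place that the assembly factor Ndufaf2 holds in an intermediate, had 120.1, 119.7 and 86.0 CPM in the 3 WT samples and 75.0, 63.9 and 58.3 CPM in the 3 Dlx2OE samples (log2 fold change -0.72, SE 0.16, adjusted p = 0.0389). In each of these genes the third WT sample was the lowest WT sample and the groups did not overlap.

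Ndufs6 and Ndufs4, needed at the junction of the N and Q modules, did not pass. Ndufs6 had 74.9, 70.6 and 41.1 CPM in the 3 WT samples and 37.3, 32.7 and 27.6 CPM in the 3 Dlx2OE samples, a difference of 1.91-fold that just missed the threshold (log2 fold change -0.93, SE 0.23, adjusted p = 0.0503). Ndufs4 had a log2 fold change of -0.47 and Ndufv3 one of -0.50, both with groups that did not overlap.

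In the Q module all 6 members had a negative value and only Ndufa5 passed the test. Ndufa5 (chr6:24518666-24528013), a small accessory subunit at the peripheral side of that module, had 78.9, 83.2 and 52.7 CPM in the 3 WT samples and 42.1, 36.0 and 32.2 CPM in the 3 Dlx2OE samples, which is 1.95-fold lower (log2 fold change -0.96, SE 0.18, adjusted p = 0.0294). Ndufa9, a dehydrogenase-like subunit near the ubiquinone site, had 105, 93.9 and 75.4 CPM in WT and 79.5, 76.6 and 65.6 CPM in Dlx2OE, with overlapping groups (log2 fold change -0.31, adjusted p = 0.185).

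The proximal membrane arm held the largest fall of the 46. Ndufa3 (chr7:3617373-3620327), a small membrane subunit, had 58.3, 57.8 and 35.3 CPM in the 3 WT samples and 21.6, 23.5 and 19.5 CPM in the 3 Dlx2OE samples. Even the lowest WT sample was well above the highest Dlx2OE sample, and the difference was 2.34-fold (log2 fold change -1.23, SE 0.20, adjusted p = 0.0185). Ndufa13, also known as GRIM-19, had 122, 128 and 83.9 CPM in the 3 WT samples and 72.1, 59.4 and 58.1 CPM in the 3 Dlx2OE samples (log2 fold change -0.82, SE 0.17, adjusted p = 0.0360), and 30% of its exon bases overlap Tssk6. Ndufa8, a cysteine-rich subunit on the intermembrane side, had 70.9, 70.4 and 56.2 CPM in the 3 WT samples and 48.4, 46.4 and 42.7 CPM in the 3 Dlx2OE samples (log2 fold change -0.52, SE 0.12, adjusted p = 0.0426). Ndufa1, the shortest member, had 49.7, 48.4 and 26.3 CPM in WT and 23.9, 22.0 and 20.0 CPM in Dlx2OE, with no overlap and no call (log2 fold change -0.92, adjusted p = 0.0558).

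In the distal membrane arm, Ndufb8, Ndufb11, Ndufb7, Ndufb10 and Ndufb5 were called lower, and all 11 members had a negative value. Ndufb8 (chr19:44548572-44555440) had 72.4, 74.9 and 57.5 CPM in the 3 WT samples and 40.7, 34.5 and 35.2 CPM in the 3 Dlx2OE samples and the smallest adjusted p of the 46 (log2 fold change -0.89, SE 0.13, adjusted p = 0.0136). Its WT samples were closer together than those of the other called members with larger falls, and it was the member still called without Dlx2OE sample 3. Ndufb11, a single-pass membrane subunit of the X chromosome, had 136, 153 and 94.3 CPM in the 3 WT samples and 80.7, 73.4 and 66.5 CPM in the 3 Dlx2OE samples (log2 fold change -0.80, SE 0.18, adjusted p = 0.0410), with 12.9% of its exon bases overlapping Rbm10 and a near-identical processed pseudogene, Gm6444. Ndufb7 and Ndufb10, cysteine-rich subunits of the intermembrane side, had log2 fold changes of -0.77 (adjusted p = 0.0473) and -0.73 (adjusted p = 0.0369). Ndufb5 had one of -0.67 (adjusted p = 0.0438), and 12.3% of its exon bases overlap Mrpl47.

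The same arm held the 2 accessory subunits with the least change. Ndufab1, the mitochondrial acyl carrier protein, which also serves fatty acid and lipoic acid synthesis, had 25.4, 19.5 and 21.5 CPM in the 3 WT samples and 19.8, 22.5 and 23.0 CPM in the 3 Dlx2OE samples (log2 fold change -0.025, SE 0.14, adjusted p = 0.915). Ndufb2 had 11.4, 7.13 and 8.76 CPM in the 3 WT samples and 8.47, 7.80 and 9.56 CPM in the 3 Dlx2OE samples (log2 fold change -0.080, SE 0.21, adjusted p = 0.819). In both, the first WT sample was the highest of the 6 and the other 5 samples were intermixed.

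Ndufa4 was first described with complex I and is now placed in complex IV, and Ndufa4l2 is a relative that low oxygen induces. Ndufa4 had 265, 269 and 173 CPM in the 3 WT samples and 147, 139.9 and 123 CPM in the 3 Dlx2OE samples and fell by an amount within the range of the called subunits (log2 fold change -0.79, SE 0.18, adjusted p = 0.0427). Ndufa4l2 was low, with 0.649, 2.02 and 1.38 CPM in the 3 WT samples and 0.675, 0.796 and 0.665 CPM in the 3 Dlx2OE samples, and its groups overlapped (log2 fold change -0.92, SE 0.42, adjusted p = 0.190). Of 13 other genes of the response to low oxygen, none passed edgeR's test, 4 had an unadjusted p under 0.05, a share near the 29.5% of all genes, DESeq2 called 1, and the median log2 fold change was -0.05.

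**Figure D2:**
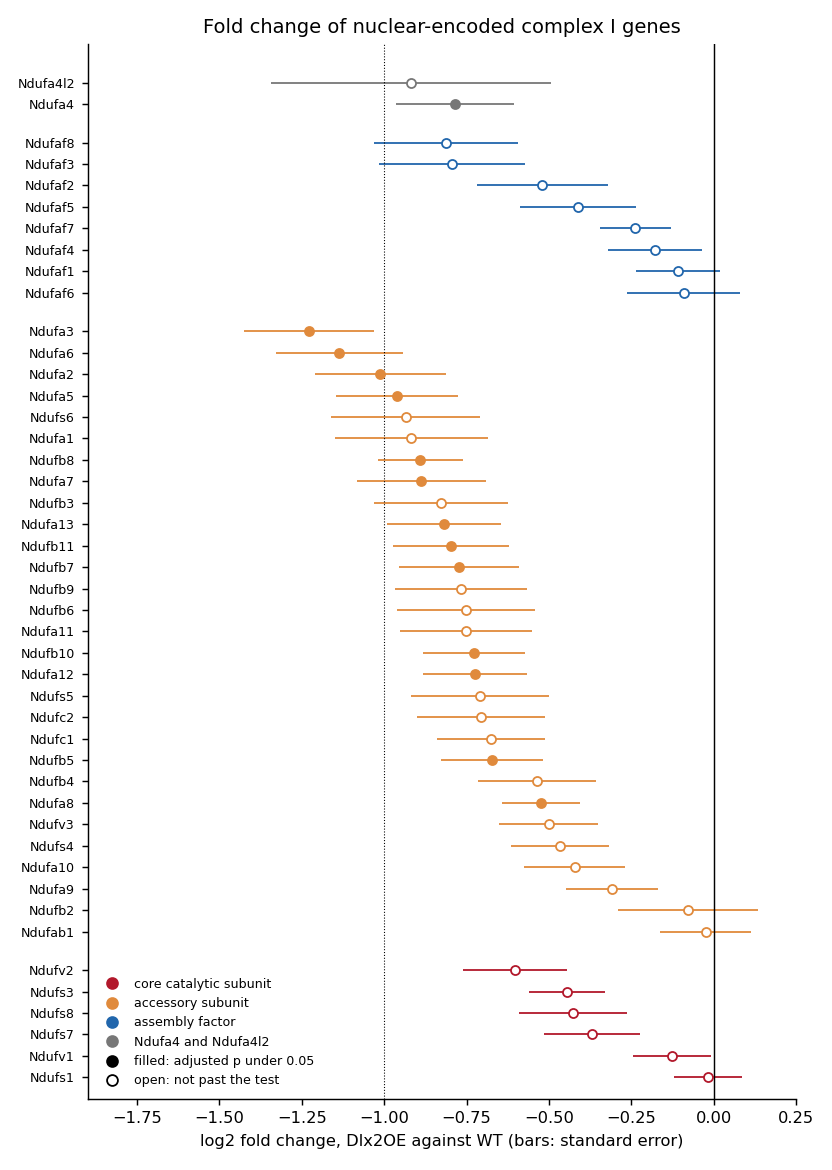
Each point is the log2 fold change of 1 described member, Dlx2OE against WT, with its standard error, grouped and coloured by role; filled points passed the test and the dotted line marks a log2 fold change of -1. Every point is left of 0; the filled points are 13 accessory subunits and Ndufa4, and Ndufa3, Ndufa6 and Ndufa2 lie left of the dotted line.

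With the further criterion of a log2 fold change below -1, 3 members remained (Ndufa3, Ndufa6 and Ndufa2), beside 1.62% of all genes.

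The Ndufaf assembly factors spread from almost no difference to that of the subunits. None of the 8 passed edgeR's test, and 4 had an unadjusted p under 0.05 (29.5% of all genes did). DESeq2 called 2 lower, beside 7.82% of its genes. In 3 (Ndufaf8, Ndufaf3 and Ndufaf7) all Dlx2OE samples lay below all WT samples, beside 17.3% of all genes. Ndufaf8, a partner of Ndufaf5, had 25.5, 28.0 and 16.5 CPM in the 3 WT samples and 15.5, 12.6 and 11.7 CPM in the 3 Dlx2OE samples (log2 fold change -0.81, SE 0.22, adjusted p = 0.0618). Ndufaf3, which acts with Ndufaf4 on the Q module, had 22.6, 27.6 and 14.9 CPM in the 3 WT samples and 11.3, 13.1 and 13.1 CPM in the 3 Dlx2OE samples (log2 fold change -0.79, SE 0.22, adjusted p = 0.0678). In these 2 genes, which DESeq2 called, the difference was within the range of the called subunits, and the third WT sample came close to the highest Dlx2OE sample.

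Ndufaf2, the chaperone that Ndufa12 replaces, had 53.0, 45.0 and 30.5 CPM in the 3 WT samples and 31.4, 32.2 and 26.0 CPM in the 3 Dlx2OE samples (log2 fold change -0.52, adjusted p = 0.133), and 65.6% of its exon bases overlap an annotated gene on the opposite strand. Ndufaf5, which modifies an arginine of Ndufs7, had 31.5, 26.7 and 20.5 CPM in the 3 WT samples and 19.6, 21.8 and 17.6 CPM in the 3 Dlx2OE samples (log2 fold change -0.41, adjusted p = 0.164). In both, WT sample 3 lay among the Dlx2OE samples.

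Ndufaf7, an arginine methyltransferase, had 33.6, 34.5 and 29.2 CPM in the 3 WT samples and 27.0, 27.3 and 28.3 CPM in the 3 Dlx2OE samples, with a narrow gap between the groups (log2 fold change -0.24, adjusted p = 0.184). Ndufaf4 had 45.0, 40.9 and 32.7 CPM in the 3 WT samples and 37, 36.9 and 30.9 CPM in the 3 Dlx2OE samples (log2 fold change -0.18). Ndufaf1, a factor of the membrane arm, had 24.4, 20.7 and 23.3 CPM in the 3 WT samples and 22.7, 21.7 and 19.0 CPM in the 3 Dlx2OE samples (log2 fold change -0.11, adjusted p = 0.595). Ndufaf6 had 9.19, 9.69 and 8.05 CPM in the 3 WT samples and 9.18, 8.60 and 7.50 CPM in the 3 Dlx2OE samples (log2 fold change -0.091, adjusted p = 0.745). In the last 3 the groups overlapped.

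The subunits had a more negative median than the factors, and lay below them in each Dlx2OE sample, an order that the accessory subunits carried. As the mean of the genes' log2 CPM minus the WT mean, the 36 subunits stood at 0.19, 0.16 and -0.35 in WT and at -0.50, -0.61 and -0.73 in Dlx2OE. The 8 factors stood at 0.16, 0.12 and -0.28 in WT and at -0.32, -0.32 and -0.49 in Dlx2OE. Among the subunits, the 29 accessory ones stood at -0.57, -0.68 and -0.80 in Dlx2OE and the 6 core subunits described here at -0.21, -0.30 and -0.46, so that on this mean the core subunits did not lie below the factors in any Dlx2OE sample, while their median log2 fold change, -0.40, was below the -0.32 of the factors. For the 36 subunits and the 8 factors the third WT sample was the lowest of WT and the third Dlx2OE sample the lowest of all. The difference of the means, subunits minus factors, was 0.025, 0.039 and -0.064 in WT and -0.18, -0.28 and -0.24 in Dlx2OE, so that the groups did not overlap and the third WT sample was again the lowest of WT, between the other WT samples and the Dlx2OE samples. With 3 samples a group an exact permutation test cannot go below a p of 0.1, and no p is given for a score over members.

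**Figure D3:**
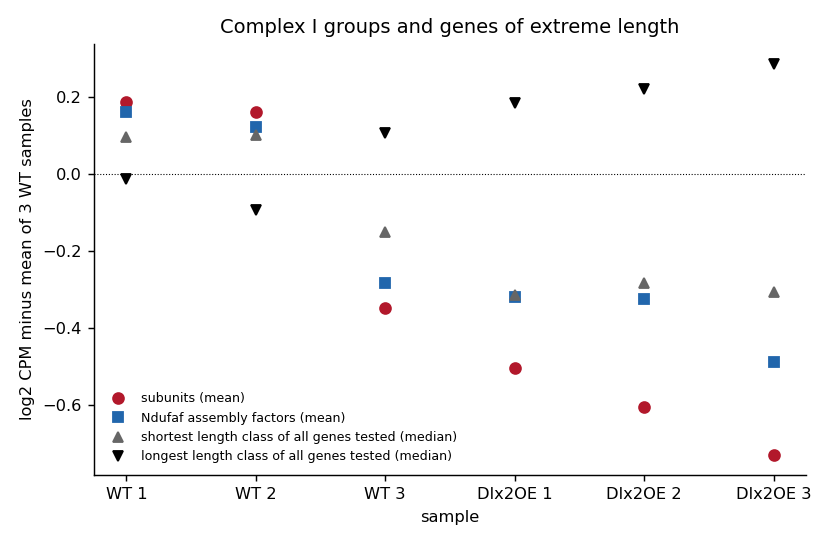
Points show, per sample, the mean log2 CPM minus the WT mean for the 36 subunits and the 8 Ndufaf factors, and the median of the same quantity for the shortest and the longest of 10 length classes of all genes tested. Subunits lie below factors in each Dlx2OE sample, and the third WT sample lies between the other WT samples and the Dlx2OE samples for subunits, factors and both length classes.

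Length went with the change, among the members and across all genes. Exon length, the number of bases covered by any annotated exon of a gene, ran from 419 in Ndufa1 to 8086 in Ndufs1, and Spearman's correlation of the log2 fold change with it was 0.60 over the 46 members and 0.28 over 17496 genes. The values are descriptions across genes of the same 6 libraries, and genes are not independent replicates. The shorter 23 members, of 419 to 1569 bases, had a median log2 fold change of -0.77 and 9 calls. In the length classes of all genes (described below) that cover these lengths, 9.88% and 6.11% of genes were called lower. The longer 23, of 1718 to 8086 bases, had a median of -0.45 and 5 calls. In the classes that cover those lengths, 1.26% to 6.11% of genes were called lower. Coding length gave a correlation of 0.71 over the members, the longest coding transcript 0.70 and the genomic span 0.56. Over the 36 subunits the value was 0.61 with exon length and 0.67 with coding length. Over the 8 factors it was 0.07 with exon length, 0.31 with the longest coding transcript and 0.52 with coding length.

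Short genes were lower in Dlx2OE in the whole tissue, so the members' values need that level beside them. With all genes tested in 10 classes of near-equal size by exon length, the shortest class, of 54 to 1281 bases, had a median log2 fold change of -0.30, and the longest class, of 9467 bases or more, one of 0.23. The shortest class stood at 0.094, 0.10 and -0.15 in the WT samples and at -0.31, -0.28 and -0.31 in the Dlx2OE samples, an order in which WT sample 3 again lay between the groups. In that class were 18 members, with a median of -0.80, 17 of them below the median of the class, and 7 of the 18 were called lower, beside 9.88% of all genes of the class. In the next class, of 1282 to 2020 bases, 4 of 11 members were called, beside 6.11% of its genes. Against a lowess curve of log2 fold change on exon length over all genes, 43 of the 46 members lay below the curve. The median distance from the curve was -0.42 over the members, -0.43 over the subunits and -0.18 over the factors. The 3 members above it were Ndufaf1, Ndufaf6 and Ndufv1.

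**Figure D4:**
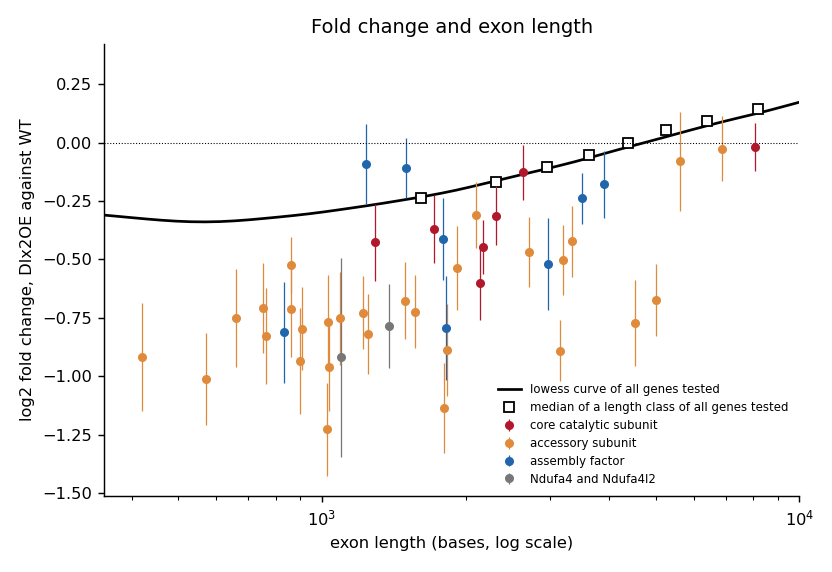
Points are members, with exon length on a log scale across and the log2 fold change with its standard error upward; the line is a lowess curve over all genes tested and the open squares are medians of length classes of all genes, without the shortest and the longest class. Of the 46 points, 43 lie below the curve, and the longest members Ndufs1, Ndufab1 and Ndufb2 lie nearest to 0 among the subunits.

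Subunits and factors overlapped in length and differed in its median. The subunits had a median exon length of 1643.5 bases and a median coding length of 444 bases, and the factors 1802 and 769.5 bases. The exon length range of the factors, 834 to 3902 bases, holds 26 of the 36 subunits, which had a median log2 fold change of -0.69 and 10 calls. The coding length range of the factors, 222 bases in Ndufaf8 to 1149 bases, holds 31, with a median of -0.72 and 13 calls. Those 31 had a median coding length of 432 bases, so they were not matched to the factors in it. The factors had a median of -0.32 and 0 calls, and 3.46% of all genes tested were called lower. The part of length in this difference was not tested. Genes of nearly the same exon length show the spread. Ndufaf1 (1501 bases) had -0.11 and the subunit Ndufc1 (1495 bases) -0.68, and Ndufaf6 (1235 bases) had -0.091 and Ndufb10 (1217 bases) -0.73. These pairs were not matched in coding length, at 984 and 228 bases in the former and 999 and 528 bases in the latter. On the other hand Ndufaf3 (1815 bases), at -0.79, was close to Ndufa7 (1828 bases), at -0.89, with coding lengths of 555 and 339 bases. Ndufb7 (4522 bases) and Ndufb5 (4995 bases), at -0.77 and -0.67, fell although genes of their length had curve values of -0.011 and 0.013. The coding lengths of both are short, 411 and 567 bases.

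When each sample was corrected for length and GC content by a loess fit over all genes, the members' median went from -0.69 to -0.48 and 44 of the 46 kept a negative value. The correlation with length over the members went from 0.60 to 0.38 for exon length, from 0.70 to 0.61 for the longest coding transcript and from 0.71 to 0.65 for coding length. The corrected test called 5 members, all lower, beside 2.37% of all genes: Ndufa3 (-0.96, adjusted p = 0.0146), Ndufa6 (-0.91, 0.0209), Ndufb8 (-0.79, 0.0136), Ndufa2 (-0.72, 0.0421) and Ndufa5 (-0.70, 0.0392), as log2 fold changes with edgeR's adjusted p. The subunits then had a median of -0.49 and the factors -0.21, and Ndufaf1 (0.028) and Ndufaf6 (0.13) turned positive. Ndufb7, Ndufb5, Ndufab1 and Ndufs1 had a more negative value after correction than before. The part of length, GC content or RNA quality in the uncorrected values was not tested beyond this.

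**Figure D5:**
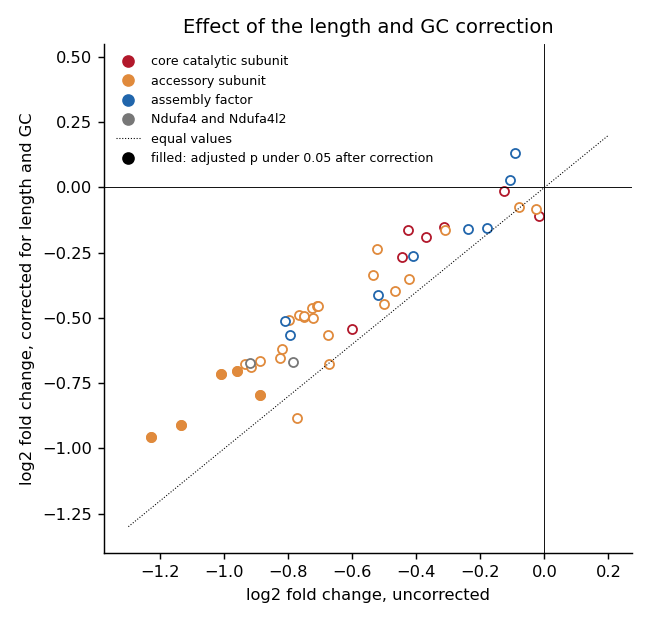
Each point is 1 member, with its uncorrected log2 fold change across and the value after correction for length and GC content upward; filled points passed the corrected test and the dotted line marks equal values. Most points lie above the line, closer to 0 after correction; the filled ones are Ndufa3, Ndufa6, Ndufb8, Ndufa2 and Ndufa5, and Ndufaf1 and Ndufaf6 lie above 0.

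Levels between members were compared per kilobase of exon. In WT, Ndufa2 was highest at 184 ± 49.1 CPM per kilobase (SD, n = 3), followed by Ndufa4 at 171 ± 39.6, Ndufc2 at 162 ± 42.2 and Ndufb11 at 141 ± 33.2 CPM per kilobase. The order of these 4 was the same in each WT sample. Their SDs hold a shift common to all 4, with WT sample 3 the lowest, and differences between genes were not tested. The lowest were Ndufa4l2 at 1.23 ± 0.628 and Ndufb2 at 1.62 ± 0.384 CPM per kilobase, and the factors ran from 7.27 ± 0.680 for Ndufaf6 to 27.9 ± 7.27 for Ndufaf8. Every factor had a lower mean than every core subunit described here other than Ndufs1, which stood at 13.1 ± 1.27 CPM per kilobase. Exons used by few transcripts lengthen the exon union and lower such values. The 46 members together took 0.359%, 0.365% and 0.273% of all counts in the WT samples and 0.245%, 0.235% and 0.214% in the Dlx2OE samples.

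Genes that work with the members were read from the same test. The 7 complex I subunits of mitochondrial DNA all had their Dlx2OE samples below all WT samples, beside 17.3% of all genes. Their median log2 fold change was -0.66, and mt-Nd4 and mt-Nd4l were called lower, beside 3.46% of all genes. mt-Nd4 had 3 samples of WT at 3063, 3540 and 2529 CPM and of Dlx2OE at 1708, 1757 and 1737 CPM (log2 fold change -0.81, SE 0.17, adjusted p = 0.0367). mt-Nd4l had 1.13, 1.06 and 1.09 CPM in the 3 WT samples and 0.236, 0.318 and 0.148 CPM in the 3 Dlx2OE samples, a level close to the floor of 3 counts in Dlx2OE (log2 fold change -2.19, SE 0.36, adjusted p = 0.0194). Of 11 assembly factors without an Nduf symbol, 7 had a negative and 4 a positive value, with a median of -0.12. None passed, 2 had an unadjusted p under 0.05 (29.5% of all genes did), and DESeq2 called 1. The largest change was a higher level of Rtn4ip1 (log2 fold change 0.68), with 9.91, 9.82 and 12.8 CPM in WT and 19.0, 17.9 and 15.1 CPM in Dlx2OE. Of 19 nuclear subunits of complexes III and IV, 18 had a negative value, and the median was -0.64. Of the 19, 5 were called lower (Uqcr11, Uqcr10, Uqcrb, Cox7c and Cox4i1), beside 3.46% of all genes. Of 12 regulators of mitochondrial genes and number, among them Nrf1, Yy1, Gabpa and Tfam, none passed. An unadjusted p under 0.05 was found in 4, a share near the 29.5% of all genes, and DESeq2 called 1. Their median was 0.12, with 4 negative and 8 positive values, from -0.58 in Ppargc1a to 0.58 in Ppargc1b.

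Markers of the cell types in the tissue were set beside these values. Summed over 9 mesenchyme markers the level was 3379 to 3524 CPM in WT and 3823 to 4106 CPM in Dlx2OE. Alx4 and Twist1 were called higher, and 1 marker, Col3a1, had a negative log2 fold change (-0.13). Over 7 red blood cell markers the level was 3103 to 4230 CPM in WT and 1927 to 2496 CPM in Dlx2OE. Hba-a1 and Alas2 were called lower, and Hbb-bh1 alone had a positive value (0.045). Hbb-y, not called, held the largest part of this sum, with a mean of 2314 CPM in WT and 1471 CPM in Dlx2OE. Over 5 macrophage markers the level was 48.9 to 52.4 CPM in WT and 29.4 to 40.7 CPM in Dlx2OE. C1qa was called lower, and Cx3cr1 alone had a positive value (0.32). These 3 sums did not overlap between genotypes. The sums of the other cell types overlapped between genotypes. Epithelium had 594 to 1076 CPM in WT and 478 to 1540 CPM in Dlx2OE. Of its 7 markers 4 had a negative value, with Krt8 and Krt18 called lower, and Krt5 (1.91), Krt14 and Trp63 a positive one. Endothelium had 246 to 378 CPM in WT and 178 to 279 CPM in Dlx2OE, all 5 markers negative and Emcn called. Pericytes and smooth muscle had 370.2 to 452 CPM in WT and 351 to 454 CPM in Dlx2OE. Of 8 tested markers 5 were negative, with Rgs5 called, 3 positive, and Higd1b was at or near 0 in each sample. Neurons had 61.0 to 284 CPM in WT and 181 to 868 CPM in Dlx2OE, all 7 markers positive and none called. Glia had 66.7 to 79.4 CPM in WT and 27.7 to 234 CPM in Dlx2OE. Of 4 tested markers 3 were positive and 1 negative, none was called, and Foxd3 was at 0. Skeletal muscle had 159 to 309 CPM in WT and 65.9 to 188 CPM in Dlx2OE, all 6 markers negative and none called. The part of any cell type in the members' values was not tested.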

How the data were processed

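Poly(A) RNA of 3 WT and 3 Dlx2OE samples was sequenced with a kit that does not mark strand. Per the labels, reads were mapped to mm10 with STAR 2.7.3a and counted per gene with HTSeq 0.12.4, and the authors deposited raw counts without normalization; the annotation release and strand setting are not given in the sources used here. Totals on genes were 26155500 to 31308813 counts per sample, and 3 counts are 0.0955 to 0.111 CPM (counting error only). The 5 summary lines of unassigned reads were left out of all tests, and in the pool of reads that they and the genes form, reads outside genes took 5.03% to 14.7%. No batch is given in the labels.

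Counts were filtered with filterByExpr (minimum count 10), scaled by TMM and tested with the quasi-likelihood F test of edgeR 4.0.16 (R 4.3.3) on genotype, with Benjamini-Hochberg adjustment over 17514 genes. CPM are TMM-scaled, with a prior count of 2 for log2 values. Alternatives were DESeq2 1.42.0, other scalings and filters, a replicate block, a loess correction for length and GC content (span 0.5), and leaving out each sample. Scripts were tested on simulated data. A single member is counted in the totals and not reported here. Named were the core subunits, factors, called members, the 5 largest falls and the 5 values nearest to or above 0, with members used for a same-length comparison, a promoter or an overlap named after their values were seen. Members and lists were chosen with earlier results of these data known. Promoters came from RefSeq (GRCm38.p6). Figures were drawn with matplotlib 3.10.9.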

Additional observations from a re-analysis of the deposited data

How the results depend on the processing

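The median of the Ndufaf factors moved by less than its spread between samples in each alternative tried, and the log2 fold change kept its sign for all 46 members under DESeq2, RLE scaling, both filters on low counts, the replicate block, and removal of mitochondrial and haemoglobin genes. The number of members past the test was the value that moved most. The 14 became 29 with DESeq2, and 28 with DESeq2 at the default level of its filter. That level was chosen after seeing the data, and the level of 0.05 used here was itself set after a first output. Of all genes with any count, DESeq2 called 4.18% and 4.07% lower, a wider base than that of the 7.82% given above. With no filter on low counts 27 members were called, beside 3.51% of all genes called lower. The length and GC correction gave 5, beside 2.37%. With that correction and Dlx2OE sample 3 left out, also chosen after seeing the data, 2 were called (Ndufa3 and Ndufb8), beside 1.00%. Leaving out 1 sample gave 0 to 33 calls, beside 0.222% to 7.14% of all genes called lower. It gave -0.28 to -0.47 for the subunit median minus the factor median, which was -0.38 with all samples. That difference was -0.28 with the correction, -0.27 with the correction and the block, -0.24 with the correction and without Dlx2OE sample 3, -0.44 without members that overlap another gene or have a near-identical copy, and -0.54 with the factors without an Nduf symbol counted in. The subunit median was -0.48 with correction and block and -0.41 with correction and without Dlx2OE sample 3. The correlation with length was 0.38 with the correction, 0.38 with correction and block, 0.34 with correction and without Dlx2OE sample 3, 0.70 with the longest coding transcript and 0.71 with coding length, and these last 2 were 0.61 and 0.65 with the correction.

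The replicate numbers 1 to 3 were tried as a replicate block, which gave 22 calls, beside 3.16% of all genes called lower. Deviations of same-numbered samples had correlations of -0.072, -0.21 and 0.073, and those of differently numbered samples ran from -0.20 to 0.34. With 3 samples a group such values cannot tell whether same-numbered samples shared a litter or a batch. With the block and the length and GC correction, 13 members were called, beside 1.94% of all genes called lower.

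Single members whose direction turned were near 0. Ndufab1 had 0.047 with library size alone and -0.12 to 0.077 with 1 sample left out, and Ndufs1 0.054 and -0.082 to 0.056. Ndufb2 had -0.24 to 0.11 with 1 sample left out. Ndufaf1 had 0.028 with the correction, 0.030 with correction and block, and 0.11 with correction and without Dlx2OE sample 3, and Ndufaf6 0.13, 0.13 and 0.22. Ndufv1 had 0.067 with correction and without Dlx2OE sample 3. Over the 32 named members and all alternatives, 418 values kept their direction and side of the threshold, 33 gained a call, 79 lost one and 14 turned. The cause was not tested.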

Other observations

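Ndufb1-ps, the locus that holds the established subunit Ndufb1 and that the annotation lists as a noncoding gene, lay outside the members and had 36.4, 39.0 and 21.9 CPM in the WT samples and 16.6, 17.3 and 13.4 CPM in the Dlx2OE samples. It was called lower by edgeR's quasi-likelihood F test, Benjamini-Hochberg adjusted (log2 fold change -1.04, SE 0.22, adjusted p = 0.0375), with groups that did not overlap. The processed pseudogenes with Nduf symbols (Ndufa11b, Ndufb4c, Ndufs6b and Ndufab1-ps) held 0 to 24 counts per sample.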
